A study of Mus musculus with 10 samples.

Results

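Inguinal subcutaneous white fat taken 70 days after electron irradiation was set against fat of sham mice, with both ways of delivering the dose considered as 1 irradiated condition. The irradiated side held 7 of the 10 RNA-seq libraries, chosen by their titles: 4 from FLASH mice and 3 from CONV mice, both given 33.3 Gy to the left hindlimb, against 3 libraries from sham mice that were not irradiated. All mice were C57BL/6J with a WT genotype, the fat came from the irradiated area, and the beam was made by an ElectronFlash linear accelerator. The labels used here give neither age nor sex; Xist at 0.364 to 1.30 counts per 1e6 gene counts (CPM) and Ddx3y at 127 to 164 CPM were as in male tissue in all 10 libraries. Whether every library came from its own mouse is not stated, and the p-values below measure the spread between these samples. The pooled effect was the mean of the FLASH and CONV group means minus the sham mean, so that the 4 FLASH libraries did not outweigh the 3 CONV libraries. Of 24421 gene symbols, 15266 passed the filter on low counts and were tested, and 12111 of those (79.3%) had FLASH and CONV estimates of the same sign, 6875 (45%) positive and 5236 (34.3%) negative. Without a pair of lymphocyte-rich libraries described below, the count was 9208 of 15252, 4588 (30.1%) positive and 4620 (30.3%) negative. Both estimates are taken against the same 3 sham libraries, so that count is a description and the values of each are given side by side.

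FLASH radiotherapy delivers a dose at an ultra-high dose rate, whereas CONV is delivery at a conventional dose rate. Subcutaneous white fat stores triglyceride in adipocytes, which arise from fibroblast-like progenitors in a stroma of vessels, nerves and immune cells, and late radiation injury of this tissue is known for fibrosis, loss of fat and inflammation. Wnt and Hedgehog signals pattern skin and its underlying fat during development, and in adult stroma they bear on whether progenitors become adipocytes. Interferon, cytokine, glucocorticoid and circadian signals are read in fat through small sets of well known target genes, which serve here as groups.

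The libraries held 22.4 M to 36.0 M gene counts (M, 1e6), with 17283 to 17969 genes detected. At that depth 3 counts correspond to 0.0833 to 0.134 CPM, a limit that covers counting error only. Adipoq, which encodes adiponectin and defines adipocytes, was present in all 10 libraries at 267 to 2097 CPM. FLASH replicate 3 and CONV replicate 2 stood apart: the B cell gene list lay 8.82 and 9.53 above the sham mean on the log2 scale, against -0.19 to 1.59 in the other 5 irradiated libraries and -0.75 to 0.39 in sham. Cr2, the complement receptor of mature B cells and follicular dendritic cells, was at 411 and 381 CPM in that pair and at most 0.543 CPM elsewhere, and the adipocyte list lay at -2.27 and -2.84 relative to sham there. These libraries are called the lymphocyte-rich pair, and each result is given with all 10 libraries and without the pair. Which tissue their extra transcripts came from was not tested.

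With all 10 libraries, no gene passed an adjusted p of 0.05 in edgeR's quasi-likelihood test of irradiated against sham (lowest adjusted p = 0.751). An unadjusted p under 0.05 was reached by 463 genes, 278 higher (1.82%) and 185 lower (1.21%), fewer than the 763 that this level would give if no gene differed. Without the pair again 0 genes passed (lowest adjusted p = 0.141 in edgeR), with 1050 genes at an unadjusted p under 0.05, 496 higher (3.25%) and 554 lower (3.63%). DESeq2 called 8 genes with all libraries and 129 without the pair, 82 higher and 47 lower. Limma voom called 0 with all libraries and 0 without the pair, with 393 and 989 genes at an unadjusted p under 0.05. When the pair and CONV replicate 1 were both left out, edgeR called 39 genes, 23 higher and 16 lower (lowest adjusted p = 0.0448); CONV then had 1 library, whose spread was taken from that of FLASH and sham. The 8 DESeq2 calls were Fkbp5, Mbd1, Ddi2, Oas1g, Ccl8 and Tfrc on the higher side and En1 and Ldlrad4 on the lower side, and 7 of the 8 were also among the 129. Since edgeR called nothing with all 10 libraries or without the pair, "higher" and "lower" below describe measured levels.

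A second reading of the same data asked where the libraries did not overlap at all. In 279 of the 15266 genes every irradiated library lay on one side of every sham library, 152 above (0.996% of the genes tested) and 127 below (0.832%). Scaling moved that split: 102 above and 156 below with upper-quartile factors, and 102 above and 140 below with total counts only. Without the pair the count was 459, 202 above (1.32%) and 257 below (1.69%), counted after the counts were filtered and scaled again. Without sham replicate 1 it was 1287, without FLASH replicate 1 it was 676, and without sham replicate 2 or 3 or CONV replicate 1 or 3 it was 525, 545, 431 or 441. Without FLASH replicate 3 or CONV replicate 2 it was 286 or 287. Fewer libraries have to be separated in each case, and the count differed with the library left out. Some genes would separate in this way even if no gene differed, and the number to be expected was not worked out. None of these counts is therefore shown to exceed it. The 12 higher and 12 lower genes with the smallest p-values among the non-overlapping genes, at a mean level of at least 1 on the log2 CPM scale and with a gene name, are described first. They were chosen by the contrast itself, so their separation is a description. In bulk tissue, fewer cells of a type and less RNA per cell cannot be told apart in any of these values.

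**Figure D1:**
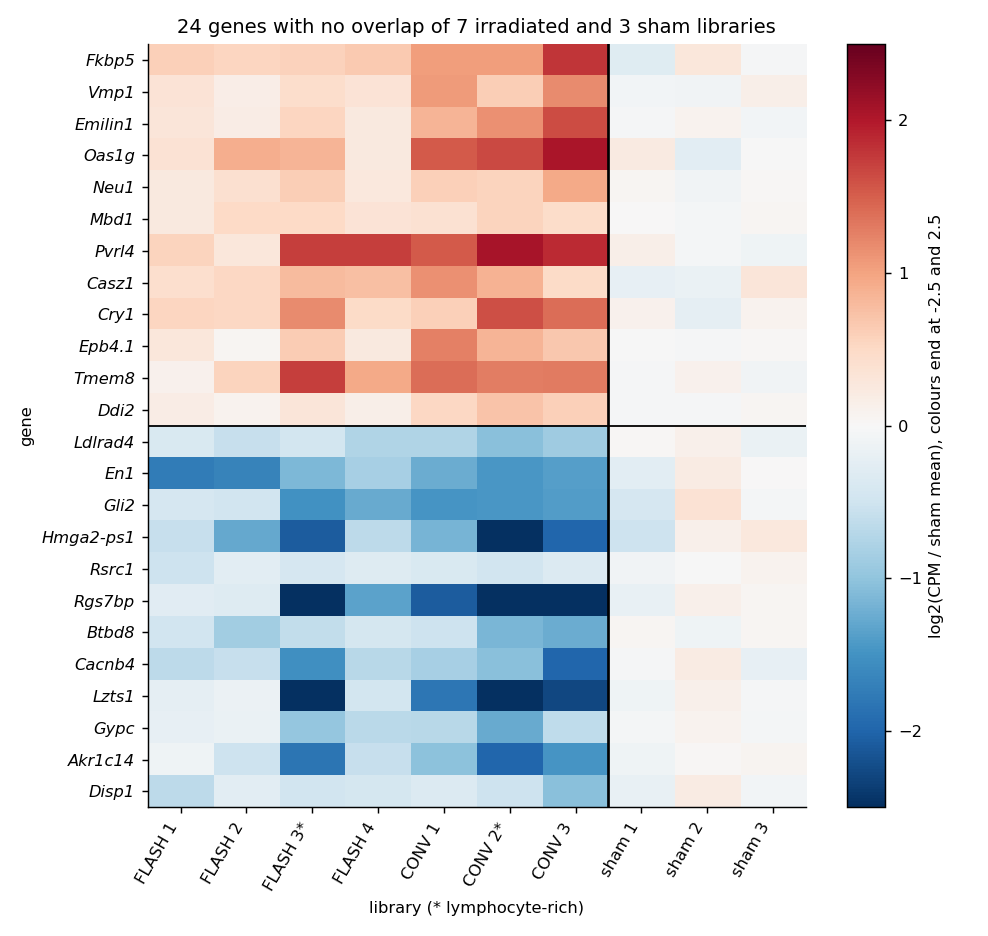
Level of the 24 named genes in each library as log2 of the CPM over the sham mean, with FLASH, CONV and sham columns from left to right, the 12 higher genes above the 12 lower ones, and colours ending at 2.5 in either direction. Asterisks mark the lymphocyte-rich pair, in which Rgs7bp and Lzts1 were at their lowest or next to it while En1, Rsrc1 and Mbd1 sat close to the other irradiated libraries.

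Among the lower genes were members of the Hedgehog and patterning programmes. En1, the homeobox gene that marks a dermal fibroblast lineage, lies at chromosome 1, 120602418 to 120607992 (plus strand, mm10). It had 1.49, 1.58, 2.29 and 2.84 CPM in FLASH fat and 2.11, 1.84 and 1.93 CPM in CONV fat, against 4.18, 5.79 and 5.06 CPM in sham fat. The 7 irradiated values all lay below the lowest sham value, and the lymphocyte-rich libraries sat among the others. The fitted level in irradiated fat was 0.400 of sham, a log2 fold change of -1.32 ± 0.27 (SE here and below), with an unadjusted p of 0.000780 and an adjusted p of 0.751 in edgeR. FLASH and CONV gave -1.29 and -1.35, and without the pair the pooled value was -1.34 ± 0.27. DESeq2 called it with an adjusted p of 0.00436.

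Gli2, the main transcriptional activator of Hedgehog signalling (chromosome 1, 118834132 to 119053619, minus strand), had 13.8, 13.2, 6.48 and 7.71 CPM after FLASH and 6.71, 6.74 and 7.03 CPM after CONV, against 13.9, 23.7 and 18.01 CPM in sham. FLASH replicates 1 and 2 came within 1 CPM of the lowest sham library, and the 3 CONV libraries were close together. Its log2 fold change was -1.15 ± 0.27, and -1.07 without the pair. Disp1, which releases lipid-modified Hedgehog ligands from the cells that make them (chromosome 1, 183086266 to 183221522, minus strand), had 20.6, 27.1, 23.5 and 23.9 CPM after FLASH and 25.7, 22.8 and 15.8 CPM after CONV, against 28.8, 37.8 and 31.2 CPM in sham, a log2 fold change of -0.53 ± 0.18. The other Hedgehog genes on the patterning list overlapped between groups: Gli1 had a log2 fold change of -0.71 ± 0.45, Gli3 -0.68 ± 0.41 and the receptor Ptch1 -0.34 ± 0.21.

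Dkk2, a secreted modulator of Wnt signalling, was low in every irradiated library but did not separate. It had 1.34, 1.21, 1.56 and 1.76 CPM in FLASH fat and 2.01, 1.20 and 0.814 CPM in CONV fat, against 4.46, 6.28 and 1.98 CPM in sham fat, so that CONV replicate 1 passed sham replicate 3. The log2 fold change was -1.59 ± 0.39 with all libraries and -1.58 without the pair. Axin2, a direct Wnt target, had 40.5, 40.9, 28.5 and 34.4 CPM after FLASH and 9.07, 18.5 and 21.8 CPM after CONV, against 31.3, 54.8 and 38.3 CPM in sham, with estimates of -0.20 for FLASH and -1.33 for CONV. Of the 26 tested genes on the Wnt and developmental patterning list, 21 had a negative pooled fold change and 5 a positive one, against 44.6% negative over all genes tested. En1, Gli2, Dkk2 and Axin2 were the 4 members with an unadjusted p under 0.05, all lower, and En1 and Gli2 did not overlap, both lower. Over all genes tested, 1.21% were lower at that level and 0.832% lay below every sham library. The list median was -0.49, against 0.05 over all genes, and -0.42 against 0.00 without the pair, when 20 of 26 were negative against 49.8% of all genes. Without the pair the median was -0.08 for FLASH and -0.52 for CONV. The list mean lay at -1.06 relative to sham in CONV replicate 3. It lay at -0.29 to 0.01 in the other irradiated libraries outside the pair, against -0.23 to 0.33 in sham. No member passed the adjusted threshold in edgeR.

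**Figure D2:**
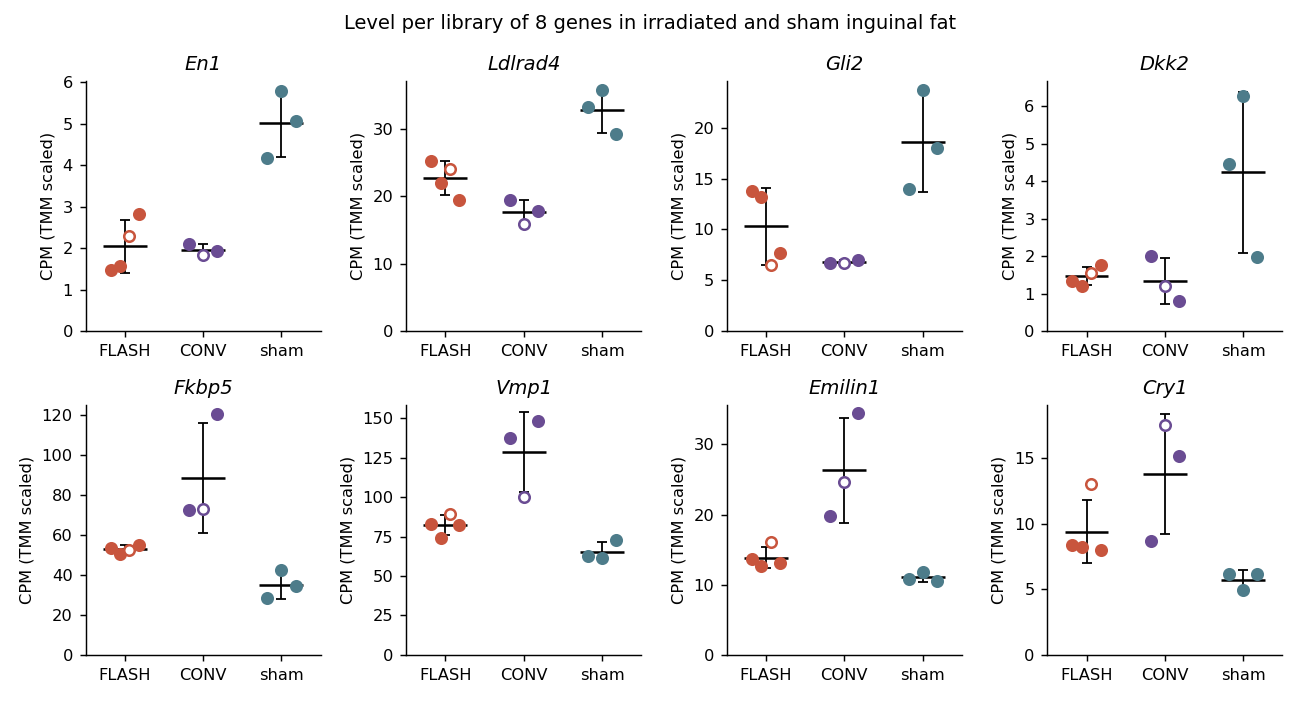
CPM of 8 genes in every library, each point a library and each bar the group mean with its SD, FLASH, CONV and sham from left to right, with open circles for the lymphocyte-rich pair. En1, Ldlrad4 and Gli2 lay below every sham library in all 7 irradiated libraries and Fkbp5, Vmp1, Emilin1 and Cry1 lay above them, while Dkk2 overlapped at sham replicate 3.

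Within the TGF-beta pathway, Ldlrad4 stood out from the other members. It encodes a membrane protein that holds back TGF-beta signalling by keeping SMAD proteins from the receptor. It had 25.3, 22.0, 24.01 and 19.4 CPM after FLASH and 19.5, 15.9 and 17.8 CPM after CONV, against 33.3, 35.8 and 29.2 CPM in sham. The highest irradiated library was 25.3 CPM and the lowest sham library 29.2 CPM. The log2 fold change was -0.71 ± 0.14, the smallest unadjusted p of all genes with no overlap (0.000642, adjusted p = 0.751 in edgeR), and -0.70 ± 0.12 without the pair. An exon of Fam210a overlaps Ldlrad4 on the opposite strand and the strand setting of the counting is not given; Fam210a itself had a log2 fold change of -0.11.

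Other members of the TGF-beta list moved less or overlapped. Tgfbr2, the type II receptor, had 178, 217, 304 and 233 CPM after FLASH and 377, 274 and 390 CPM after CONV, against 192, 218 and 188 CPM in sham, a log2 fold change of 0.51 ± 0.21. All 3 CONV libraries exceeded sham, and FLASH replicate 1 lay below it. Smad3, a signal transducer of the pathway, lay lower without overlap by a small amount, at 52.1 to 62.5 CPM in the 7 irradiated libraries against 63.6 to 65.5 CPM in sham (log2 fold change -0.15 ± 0.11). The target Pmepa1 gave -1.39 ± 0.64, with large spread. Of 26 tested members 20 were negative and 6 positive, with a median of -0.19, and -0.13 without the pair.

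The gene with the smallest p-value on the higher side was Fkbp5, which encodes a co-chaperone of the glucocorticoid receptor and is itself induced by glucocorticoids (chromosome 17, 28399094 to 28517527, minus strand). It had 53.3, 50.8, 52.6 and 55.3 CPM in FLASH fat and 72.7, 73.0 and 121 CPM in CONV fat, against 28.3, 42.6 and 34.5 CPM in sham fat. FLASH libraries formed a tight group of 52.99 ± 1.88 CPM (SD, n = 4) between CONV at 88.8 ± 27.6 CPM and sham at 35.2 ± 7.16 CPM (SD, n = 3 each). The pooled level was 1.95-fold that of sham, a log2 fold change of 0.96 ± 0.21, with an adjusted p of 0.751 in edgeR and 0.0332 in DESeq2. The lymphocyte-rich libraries sat within their groups, and without them the value was 1.01 ± 0.19.

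The other glucocorticoid-response genes followed Fkbp5 only in part. With all libraries 8 of 15 tested members were positive, with a median of 0.02. Sgk1, a kinase induced by glucocorticoids, had a log2 fold change of 0.52 ± 0.23, and Lcn2, which is also an acute-phase gene, had -0.44 for FLASH and 5.19 for CONV. Without the pair 14 of 15 were positive, with a median of 0.35 against 0.00 over all genes. The list mean in the pair lay at -1.02 and -0.84 relative to the sham mean. It lay at 0.16, 0.19 and 0.07 in FLASH replicates 1, 2 and 4 and at 0.63 and 0.98 in CONV replicates 1 and 3. Sham spanned -0.07 to 0.13, so FLASH replicate 4 lay within the sham range. The part of the adipocyte-poor pair in these list values was not tested.

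Clock genes split in direction. Cry1, a repressor at the core of the circadian clock (chromosome 10, 85131700 to 85185064, minus strand), had 8.35, 8.24, 13.0 and 8.01 CPM after FLASH and 8.66, 17.6 and 15.2 CPM after CONV, against 6.15, 4.94 and 6.14 CPM in sham. All 7 irradiated libraries were above the highest sham library, and the lymphocyte-rich libraries were the highest of their group. The log2 fold change was 0.99 ± 0.28, and 0.77 without the pair. Its paralog Cry2 was lower without overlap, at 95.6, 86.9, 29.7 and 94.0 CPM after FLASH and 71.9, 26.8 and 73.9 CPM after CONV, against 97.3, 98.9 and 98.4 CPM in sham, with the pair far below the rest. Nr1d1, the repressor REV-ERB alpha, had a log2 fold change of -1.11 ± 0.60, and -0.73 ± 0.17 without the pair; Thra overlaps it on the opposite strand and had -0.82. Cipc, a CLOCK-interacting repressor noticed after its values were seen, was higher without overlap at 33.2 to 64.4 CPM in irradiated libraries against 26.3 to 31.7 CPM in sham. Over the 18 clock genes tested, 8 were positive and 10 negative with a median of -0.15, and 11 were positive with a median of 0.10 without the pair. The labels used here give no time of day for the collection.

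RefSeq promoters (GRCm38.p6, from 250 bases before to 50 after each gene's start) were held for 16 of the 24 named genes. The E-box CACGTG, a palindrome that reads the same on both strands and is bound by CLOCK and BMAL1 among other factors, was found in 4 of the 16, those of Fkbp5, Cry1, En1 and Btbd8, and in 9.83% of the promoters of 11321 tested genes. The promoters of the lower gene En1 and the higher genes Fkbp5 and Cry1 are printed 5′ to 3′ to show where these letters fall, with the E-box in capitals.
En1, chr1:120602237-120602536 (+): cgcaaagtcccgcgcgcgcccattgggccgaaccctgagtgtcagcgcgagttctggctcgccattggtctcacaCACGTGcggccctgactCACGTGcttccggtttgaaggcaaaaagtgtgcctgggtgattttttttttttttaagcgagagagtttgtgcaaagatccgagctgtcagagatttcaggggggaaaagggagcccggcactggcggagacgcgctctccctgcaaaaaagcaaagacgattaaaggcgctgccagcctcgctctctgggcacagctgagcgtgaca
Fkbp5, chr17:28486100-28486399 (-): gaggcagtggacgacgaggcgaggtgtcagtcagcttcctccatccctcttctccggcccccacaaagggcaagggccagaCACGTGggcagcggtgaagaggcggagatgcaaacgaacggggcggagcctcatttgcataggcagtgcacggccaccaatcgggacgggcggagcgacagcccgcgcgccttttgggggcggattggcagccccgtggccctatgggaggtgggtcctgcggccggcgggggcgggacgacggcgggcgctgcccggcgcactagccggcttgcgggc
Cry1, chr10:85185005-85185304 (-): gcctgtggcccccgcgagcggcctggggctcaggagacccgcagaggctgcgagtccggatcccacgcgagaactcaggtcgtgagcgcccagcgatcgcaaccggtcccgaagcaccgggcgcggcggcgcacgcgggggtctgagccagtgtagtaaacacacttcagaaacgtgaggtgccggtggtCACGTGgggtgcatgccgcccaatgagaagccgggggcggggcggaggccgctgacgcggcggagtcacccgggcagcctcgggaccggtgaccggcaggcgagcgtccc
The first base of the E-box lies 169 bases before the start in Fkbp5, 60 before it in Cry1, and 175 and 158 before it in En1, which holds the motif at 2 places. The start of Fkbp5 in RefSeq lies inside the longer GENCODE gene given above. On both strands, the full glucocorticoid response element, the GLI motif GACCACCCA, the STAT motif TTCNNNGAA and the NF-kB site were found in 0 of the 16 promoters and in 0.371%, 0.23%, 7.08% and 0.389% of all of them. A match or its lack describes the letters of this window.

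Interferon-stimulated genes leaned to the higher side, most of all in the lymphocyte-rich pair and in CONV replicate 3. Oas1g, a member of the 2′-5′ oligoadenylate synthetase family that senses double-stranded RNA (chromosome 5, 120876142 to 120887613, minus strand), had 1.46, 2.13, 2.06 and 1.36 CPM after FLASH and 3.32, 3.57 and 4.70 CPM after CONV, against 1.33, 0.948 and 1.14 CPM in sham. FLASH replicate 4 exceeded the highest sham library by little, and every CONV library lay well above it. The log2 fold change was 1.19 ± 0.30, and 1.15 without the pair. Oas1g has close paralogs beside it in the genome, so reads of Oas1a (log2 fold change 1.17) and of Oas1g could be split differently by another count. Oas2 had 12.3, 21.8, 37.3 and 12.3 CPM after FLASH and 31.2, 44.9 and 49.98 CPM after CONV, against 12.001, 13.2 and 9.22 CPM in sham, a log2 fold change of 1.37 ± 0.39 that was 1.11 without the pair.

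The interferon-stimulated response element (ISRE), GAAA repeated after any pair of bases, was found in 2 of the 16 promoters on either strand, those of Oas1g and Akr1c14, and in 3.1% of the 11321. In Oas1g it occurs at 2 overlapping places that begin 18 and 12 bases before the start, in capitals below.
Oas1g, chr5:120887564-120887863 (-): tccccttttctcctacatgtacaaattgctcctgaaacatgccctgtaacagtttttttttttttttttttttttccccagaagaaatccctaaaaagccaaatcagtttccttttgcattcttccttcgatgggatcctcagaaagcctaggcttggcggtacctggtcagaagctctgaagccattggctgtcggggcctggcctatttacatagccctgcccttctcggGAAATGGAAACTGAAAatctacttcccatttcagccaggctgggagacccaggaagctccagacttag
Of the 33 interferon-stimulated genes tested, 31 had a positive pooled fold change, against 55.4% of all genes, and 8 had an unadjusted p under 0.05, all higher. Oas1g, Irf9, Stat2 and Zbp1 did not overlap between groups. Over all genes tested, 1.82% were higher at that level and 0.996% lay above every sham library. Stat2, part of the interferon-activated transcription complex, had 61.9, 74.1, 142 and 64.2 CPM after FLASH and 77.7, 160 and 119 CPM after CONV, against 55.7, 59.9 and 57.2 CPM in sham. The list median was 0.72 with all libraries and 0.22 without the pair, when 26 of 33 were positive against 50.2% of all genes. The mean of the list lay 1.48 and 1.47 above sham in FLASH replicate 3 and CONV replicate 2, 0.78 above in CONV replicate 3, and within -0.05 to 0.39 in the other irradiated libraries, which overlaps the sham range of -0.18 to 0.31. How much of the list reflects the lymphoid transcripts of that pair was not tested.

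Cytokine signalling genes also differed between libraries of 1 group. Socs3, the feedback inhibitor of STAT3, had 8.68, 6.14, 35.2 and 8.94 CPM after FLASH and 38.5, 53.2 and 50.7 CPM after CONV, against 7.15, 7.42 and 7.75 CPM in sham. FLASH replicates 1, 2 and 4 stayed at the sham level or near it, and all CONV libraries were far above it. The log2 fold change was 1.83 ± 0.55, and 1.32 without the pair. Il4ra, the interleukin-4 receptor alpha chain, was higher in all 7, at 49.1, 47.2, 179 and 50.9 CPM after FLASH and 104, 184 and 153 CPM after CONV, against 40.2, 39.1 and 42.6 CPM in sham. Of the 19 STAT3 and cytokine receptor genes tested 18 were positive with a median of 0.61, and 16 of 18 with a median of 0.40 without the pair (0.01 for FLASH and 0.73 for CONV). The NF-kB and acute phase list had 20 of 22 positive with a median of 1.30, and 19 of 23 with a median of 0.31 without the pair. Its mean lay 0.98, 1.39 and 1.51 above sham in the CONV libraries and 0.12, 0.10, 1.00 and 0.15 above it in the FLASH libraries, against -0.16 to 0.14 in sham.

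Macrophage genes were positive in the pooled estimate in 20 of 20, against 55.4% of all genes. Positive estimates at both dose rates were found in 13 of the 20, against 45% of all genes. The median was 0.44 (0.11 for FLASH and 0.75 for CONV). Without the pair 18 of 19 were positive, against 50.2% of all genes, with a median of 0.40. Marco passed the low-count filter only with the pair. CONV replicate 1 and the pair stood above the others: the list mean lay 1.26 above sham in CONV replicate 1, 0.49 in FLASH replicate 3 and 0.72 in CONV replicate 2. The mean was -0.06, 0.20 and 0.13 in FLASH replicates 1, 2 and 4 and 0.16 in CONV replicate 3, none of them outside the sham values of -0.15 to 0.23. CONV replicate 1 also had the highest means of the skeletal muscle and red cell lists, at 6.52 and 1.86, and their part in the macrophage values was not tested. Fcgr1, the high-affinity receptor for IgG, had a log2 fold change of 0.82 ± 0.31, with 0.11 for FLASH and 1.54 for CONV. Ccl8, a monocyte chemoattractant, had 2.85, 7.17, 39.5 and 9.18 CPM after FLASH and 47.8, 15.6 and 25.3 CPM after CONV, against 3.06, 1.80 and 2.41 CPM in sham. FLASH replicate 1 lay within the sham range and the other 6 irradiated libraries above it. Its log2 fold change was 3.10 ± 0.85, and 2.64 without the pair.

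The other named genes that were higher in all irradiated libraries had varied roles. Vmp1, an endoplasmic reticulum protein needed to form autophagosomes (chromosome 11, 86583865 to 86683836, minus strand), had 82.9, 73.9, 89.1 and 82.6 CPM after FLASH and 137, 99.8 and 148 CPM after CONV, against 62.5, 61.3 and 72.6 CPM in sham, a log2 fold change of 0.65 ± 0.16 that was 0.69 ± 0.10 without the pair. The microRNA gene Mir21a lies on the same strand within Vmp1's exons in the annotation, so its primary transcript would be counted with it. The rest of the autophagy and lysosome list did not follow Vmp1, with 8 of 21 positive and a median of -0.05. Emilin1, an elastic-fibre glycoprotein (chromosome 5, 30913402 to 30921277, plus strand), had 13.7, 12.7, 16.1 and 13.0 CPM after FLASH and 19.9, 24.6 and 34.5 CPM after CONV, against 10.8, 11.8 and 10.6 CPM in sham, a log2 fold change of 0.79 ± 0.20. Most matrix genes pointed the other way, as given below.

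Mbd1, which binds methylated CpG sites, had nearly the same level at both dose rates: 42.0, 49.9, 49.96 and 45.0 CPM after FLASH and 45.9, 51.9 and 48.5 CPM after CONV, against 35.3, 34.2 and 36.4 CPM in sham. Its log2 fold change was 0.44 ± 0.12, with 0.40 for FLASH and 0.47 for CONV. Neu1, the lysosomal sialidase, had 26.7 to 34.4 CPM after FLASH and 33.1 to 43.2 CPM after CONV, against 21.2 to 23.4 CPM in sham (log2 fold change 0.55 ± 0.15). Ddi2, a protease that activates the transcription factor NRF1 when proteasomes are impaired, had a log2 fold change of 0.40 ± 0.11, the smallest of the 12 higher genes; it shares exons with Rsc1a1, at 0.74. The cell adhesion gene Pvrl4 had the largest at 1.52 ± 0.41, and the others were the zinc finger gene Casz1 (0.74 ± 0.20), the membrane skeleton gene Epb4.1 (0.64 ± 0.18) and Tmem8 (1.14 ± 0.32).

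On the lower side, Rgs7bp, a membrane anchor for regulators of G protein signalling, had the largest fold change at -1.72 ± 0.50. It had 79.7, 77.5, 10.1 and 38.3 CPM after FLASH and 22.97, 10.6 and 16.8 CPM after CONV, against 85.7, 105 and 99.7 CPM in sham, so that FLASH replicates 1 and 2 were near sham and the pair was lowest. Lzts1, a leucine zipper gene, showed a like spread at 0.800 to 4.34 CPM in irradiated libraries against 4.49 to 5.29 CPM in sham. Rsrc1, a splicing-related gene, had the smallest fold change and a narrow spread, at 32.5 to 38.6 CPM after FLASH and 33.0 to 36.7 CPM after CONV, against 43.7 to 48.9 CPM in sham (log2 fold change -0.39 ± 0.11). Shox2, a homeobox gene of limb development that overlaps Rsrc1 on the opposite strand, was also lower without overlap, at 5.01 to 25.0 CPM in irradiated libraries against 36.7 to 45.7 CPM in sham. The calcium channel subunit gene Cacnb4 (-1.01 ± 0.31), the hydroxysteroid dehydrogenase gene Akr1c14 (-1.04 ± 0.35), the glycophorin gene Gypc (-0.65 ± 0.21) and Btbd8 (-0.76 ± 0.23) completed the named genes, with the pseudogene Hmga2-ps1 (-1.43 ± 0.39), whose reads could belong to its parent gene.

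The 24 genes had been chosen on the pooled contrast, and FLASH and CONV were then set against each other directly. In all 24 the CONV estimate lay farther from sham than the FLASH estimate. Neither this count nor that of unadjusted p-values below was taken over all genes tested, so neither is shown to be particular to the 24. The FLASH minus CONV difference had an unadjusted p under 0.05 in 8 of the 24, and in 0 after adjustment over all genes in edgeR, where the lowest adjusted p of any gene was 1.00 with all 10 libraries. Without the lymphocyte-rich pair 2 of all genes tested passed, Prg4 and Socs3, neither of them among the 24 and both named after their values were seen. Prg4, which encodes the lubricating glycoprotein lubricin, had 1.09, 1.13 and 1.53 CPM in FLASH replicates 1, 2 and 4 and 19.1 and 12.3 CPM in CONV replicates 1 and 3, against 2.03, 2.55 and 2.08 CPM in sham, scaled over the 8 libraries. The FLASH minus CONV difference was -3.65 ± 0.27 for Prg4 and -2.48 ± 0.20 for Socs3, each with an adjusted p of 0.0126 in edgeR. Emilin1 differed by -0.92 on the log2 scale (95% interval -1.39 to -0.46, FLASH minus CONV), Oas1g by -1.14 (-1.83 to -0.45), Fkbp5 by -0.74 (-1.23 to -0.26) and Vmp1 by -0.65 (-1.02 to -0.27). For En1 the difference was 0.07 with an interval of -0.64 to 0.77, and for Mbd1 it was -0.06 with -0.35 to 0.22. The En1 interval still holds differences as large as many of the pooled effects. The Mbd1 interval is narrower, and neither of them shows that the dose rates gave equal levels.

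**Figure D3:**
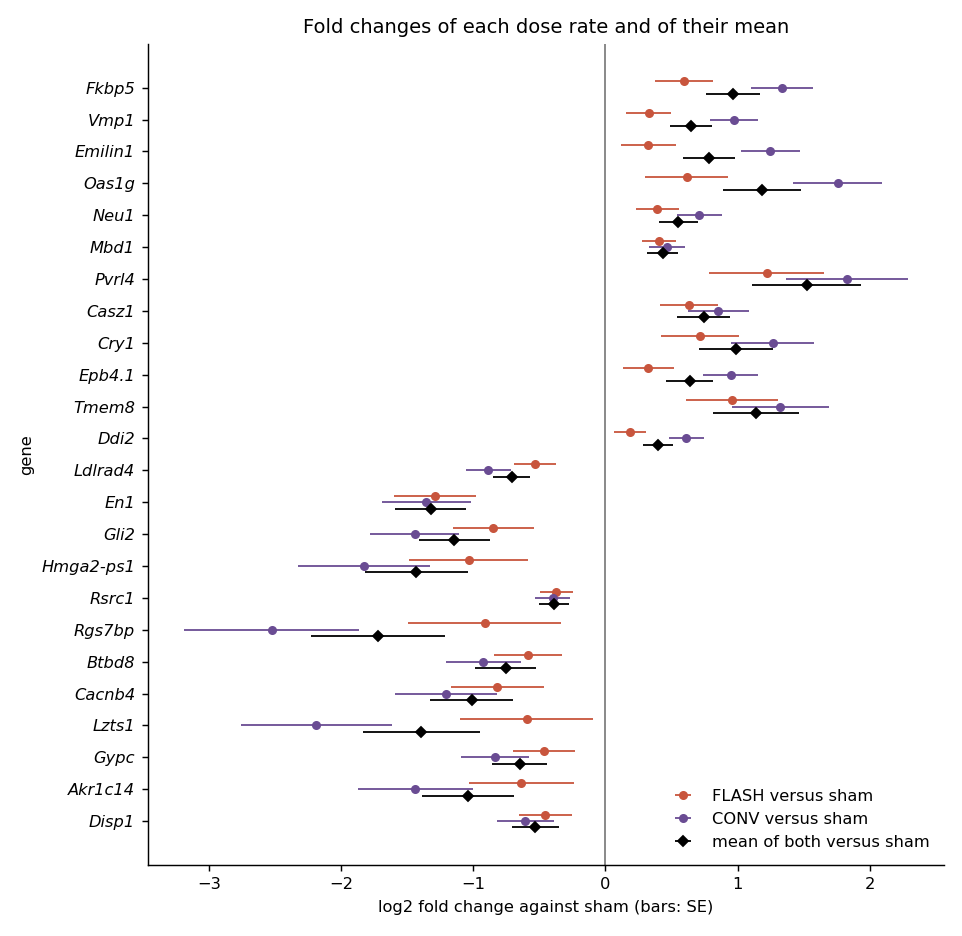
Log2 fold change against sham with its SE for FLASH, CONV and the mean of both in the 24 named genes, higher genes above lower ones. The CONV point lies farther from 0 than the FLASH point for each gene, with FLASH minus CONV differences of -0.06 for Mbd1 and -1.14 for Oas1g.

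Leaving out the lymphocyte-rich pair brought other genes forward. Of the 24 genes, 20 had values closer to 0. The same naming rule applied to the 8 libraries, a choice made after seeing the data, gave 24 genes of which 6 were shared: Fkbp5, Vmp1, Ldlrad4, En1, Lzts1 and Rgs7bp. Card14, a scaffold that activates NF-kB in epithelia, led them with 3.52, 5.44 and 4.84 CPM in FLASH replicates 1, 2 and 4 and 20.4 and 23.5 CPM in CONV replicates 1 and 3, against 2.55, 2.65 and 1.95 CPM in sham. Its log2 fold change was 2.06 ± 0.21 (adjusted p = 0.141 in edgeR), with 0.94 for FLASH and 3.18 for CONV, and it was at 0.457 and 0.668 CPM in the pair; Sgsh overlaps it on the opposite strand. C2cd2l, a lipid transfer protein gene, gave 0.87 ± 0.12, the transcription factor gene Cebpd 0.84 ± 0.13 and the phosphatase gene Ptpn1 0.60 ± 0.10. Cyp2e1, a cytochrome P450 of fat and liver, had 1423, 1329 and 1266 CPM in those FLASH libraries and 3066 and 1901 CPM in the CONV libraries, against 1017, 823 and 915 CPM in sham.

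Lower without the pair were Ccdc3, a secreted product of adipocytes and endothelium, at -0.55 ± 0.09 with -0.53 for FLASH and -0.57 for CONV, and Aspn, a small proteoglycan that binds TGF-beta, at -0.92 ± 0.19. Grb14, an adaptor that inhibits the insulin receptor, gave -1.27 ± 0.24 and did not overlap with all 10 libraries either. Akap5, a kinase anchor, had 1.55, 1.66 and 1.42 CPM in the kept FLASH libraries and 1.37 and 1.59 CPM in the kept CONV libraries, against 2.67, 3.73 and 4.39 CPM in sham. In the pair it stood above all sham libraries, at 5.41 and 5.67 CPM. Mapt, the microtubule protein tau, was the gene whose FLASH estimate lay well below its CONV estimate, -1.59 against -0.63.

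The p53 targets and other genes of the damage response were split in direction at day 70. Cdkn1a, which encodes the cell cycle inhibitor p21, had 57.6, 41.7, 15.5 and 17.9 CPM after FLASH and 24.3, 11.3 and 15.3 CPM after CONV, against 29.7, 29.6 and 20.1 CPM in sham, a log2 fold change of -0.16 ± 0.43 that was 0.05 without the pair. Mdm2, which targets p53 for degradation, gave 0.27 ± 0.22. Pmaip1, a p53 target that promotes apoptosis, had 1.52, 2.46, 29.9 and 2.84 CPM after FLASH and 6.74, 20.5 and 3.18 CPM after CONV, against 1.27, 1.99 and 1.54 CPM in sham. It was highest in the lymphocyte-rich pair, and its log2 fold change was 2.59 ± 1.11, with 2.51 for FLASH and 2.66 for CONV, and 1.05 without the pair. Gdf15, a stress-induced cytokine, gave 1.30 ± 0.58 at 0.467 CPM or less and did not pass the low-count filter without the pair. The nuclease gene Aen gave 0.51 ± 0.24, and 0.29 without the pair. Of 32 p53 targets 18 were positive and 14 negative, with a median of 0.13, and 0.02 without the pair. The senescence and secretory list had a median of 0.14, and -0.03 without the pair, and DNA repair genes 0.38, and -0.08 without the pair. Cell cycle genes were positive in 24 of 24 with a median of 1.70, which became -0.06 with 7 of 24 positive when the pair was left out.

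Most tested members of the matrix and stromal lists had negative estimates, and the size depended on the library. Of 23 collagen genes tested 21 were negative, with a median of -0.66 (-0.30 for FLASH and -0.85 for CONV), and 20 without the pair with a median of -0.31. The collagen mean lay at -1.80 and -1.93 relative to sham in the pair and at -1.01 in CONV replicate 3, whereas the other 4 irradiated libraries lay between -0.34 and 0.15, within the sham range of -0.40 to 0.43. None had an unadjusted p under 0.05, and Col1a1 gave -0.49 ± 0.55. The matrix and crosslinking list had 27 of 34 negative and a median of -0.41, which was -0.11 without the pair. Progenitor and fibroblast genes were negative in 19 of 24 with a median of -0.63, and in 22 of 24 with a median of -0.31 without the pair. Their mean was -1.31 in CONV replicate 3 and -0.30 to -0.02 in the other 4 libraries outside the pair, against -0.16 to 0.32 in sham. Among them Ebf2, a transcription factor of adipose progenitors, did not overlap between groups (-0.77), whereas Ly6a, the progenitor marker SCA-1, pointed up at 0.43 ± 0.16. Mural and smooth muscle genes were negative in 13 of 15 with and without the pair, with medians of -0.56 and -0.35. Without the pair the median was -0.10 for FLASH and -0.59 for CONV. The mural list mean lay at -0.76 in CONV replicate 3. It lay at -0.22 to 0.21 in the other irradiated libraries outside the pair, within the sham range of -0.54 to 0.28.

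Schwann and nerve genes were negative in 11 of 15 with all libraries and in 15 of 15 without the pair, with medians of -0.45 and -0.55. Prx, which encodes the Schwann cell protein periaxin, had 3.34, 6.73, 2.13 and 5.73 CPM after FLASH and 4.89, 4.47 and 4.52 CPM after CONV, against 4.49, 18.7 and 6.81 CPM in sham. The groups overlapped, and sham replicate 2 stood above all other libraries. The list mean lay at -0.76 to -0.34 relative to the sham mean in the irradiated libraries, against -0.45, 0.50 and -0.05 in sham replicates 1, 2 and 3.

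Adipocyte programmes depended on the pair. The adipocyte identity list had 22 of 25 negative and a median of -0.35 with all libraries, and 15 of 25 positive with a median of 0.01 without the pair. Adipoq gave -0.58 ± 0.59. Lep, the leptin gene, had estimates of -0.28 for FLASH and -2.39 for CONV, and its pooled value was -0.95 without the pair. Lep and Sncg (-0.76) were the 2 list members with an unadjusted p under 0.05 in edgeR without the pair. Both were lower, as were 3.63% of all genes at that level. Oxidative phosphorylation genes had a median of 0.00 with 14 of 28 positive, and 0.23 with 27 of 28 positive without the pair, and the TCA cycle list had 7 of 19 positive with the pair and 19 of 19 without it. Without the pair the medians for FLASH and CONV were -0.02 and 0.46 for oxidative phosphorylation, and -0.03 and 0.36 for the TCA cycle. The list means lay 0.93 and 0.83 above sham in CONV replicate 3. In the other irradiated libraries outside the pair they lay at -0.18 to 0.21 and -0.12 to 0.12, against -0.19 to 0.36 and -0.15 to 0.28 in sham. Thermogenic genes had medians of -0.71 for FLASH and 0.25 for CONV, with list means of -0.31, -1.21 and 1.34 relative to sham in CONV replicates 1, 2 and 3. Endothelial genes had medians of -0.16 with the pair and 0.01 without it, and Pecam1 gave 0.14 ± 0.20.

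**Figure D4:**
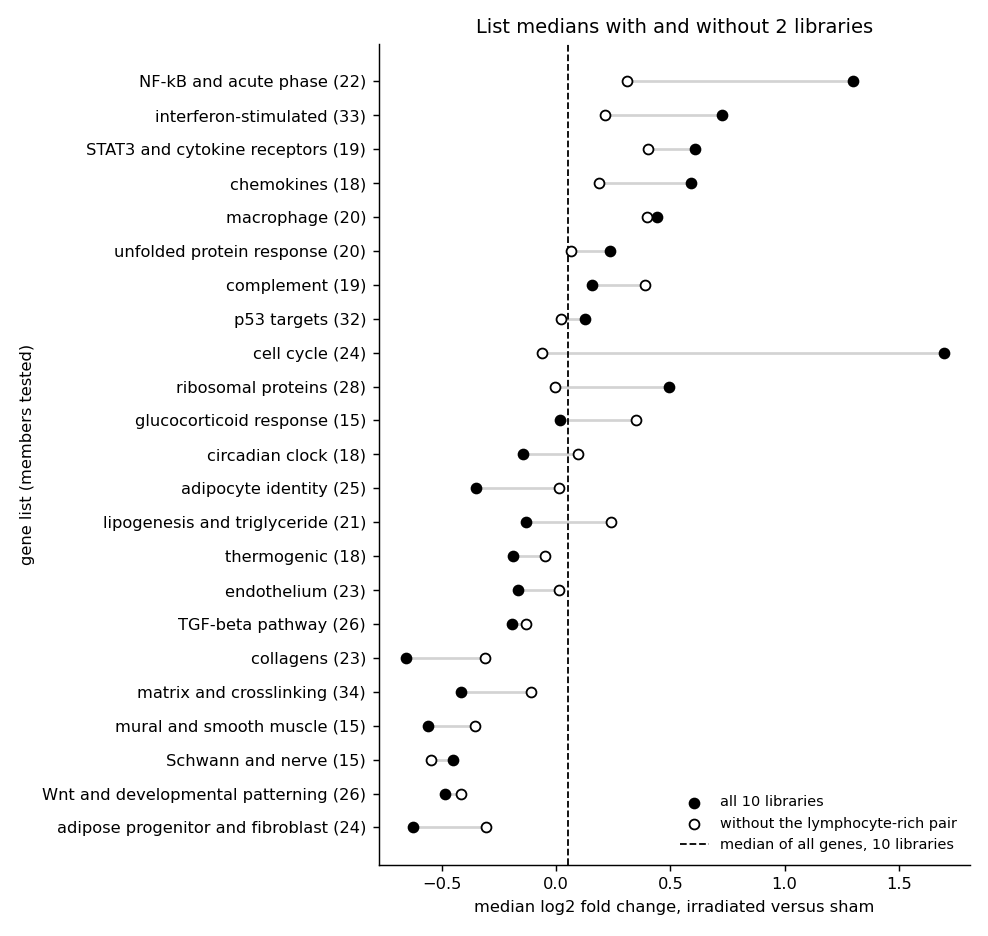
Median log2 fold change of irradiated against sham over the tested members of 23 gene lists, filled with all 10 libraries and open without the lymphocyte-rich pair, with a dashed line at the all-gene median of 0.05. Wnt and patterning, mural, and Schwann lists, among others, stayed negative in both sets. Macrophage and STAT3 lists, among others, stayed positive, while adipocyte identity sat at -0.35 and 0.01. Without the pair the medians for FLASH and CONV were -0.08 and -0.52 for Wnt and patterning, -0.10 and -0.59 for mural, and -0.57 and -0.43 for Schwann. They were 0.06 and 0.83 for macrophage and 0.01 and 0.73 for STAT3.

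Sphk1 and Hs3st3b1 were members of the sphingolipid and heparan sulphate list. Sphk1, which makes sphingosine 1-phosphate, had 1.12, 0.883, 0.953 and 1.11 CPM after FLASH and 0.671, 1.57 and 0.963 CPM after CONV, against 0.394, 0.523 and 0.168 CPM in sham. All irradiated libraries were higher, at a mean level under the cut-off for the named genes. Its log2 fold change was 1.52 ± 0.44, and 1.32 without the pair. Hs3st3b1, a heparan sulphate sulphotransferase gene, had 9.99, 14.2, 37.8 and 27.4 CPM after FLASH and 41.9, 32.5 and 32.0 CPM after CONV, against 8.27, 4.97 and 10.9 CPM in sham, and overlapped only through FLASH replicate 1. The whole sphingolipid and heparan sulphate list had 15 of 20 positive with a median of 0.15, and 0.00 without the pair.

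Markers of other tissues differed between single libraries and moved with some of these groups. The skeletal muscle list lay 6.52 above the sham mean in CONV replicate 1, 2.97 above it in FLASH replicate 2 and 4.35 above it in sham replicate 3. The keratinocyte and hair list lay 4.04 above the sham mean in FLASH replicate 4, 1.74 in CONV replicate 3 and 1.59 in CONV replicate 2. The low-count filter left out 4 of its 12 genes. Krt5 had at most 0.0909 CPM in sham and passed the filter through those irradiated libraries. Signs of the tested members are therefore not counted here. Red cell genes lay 1.86 above sham in CONV replicate 1. The part of this mixture of tissues in the values of single genes was not tested.

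**Figure D5:**
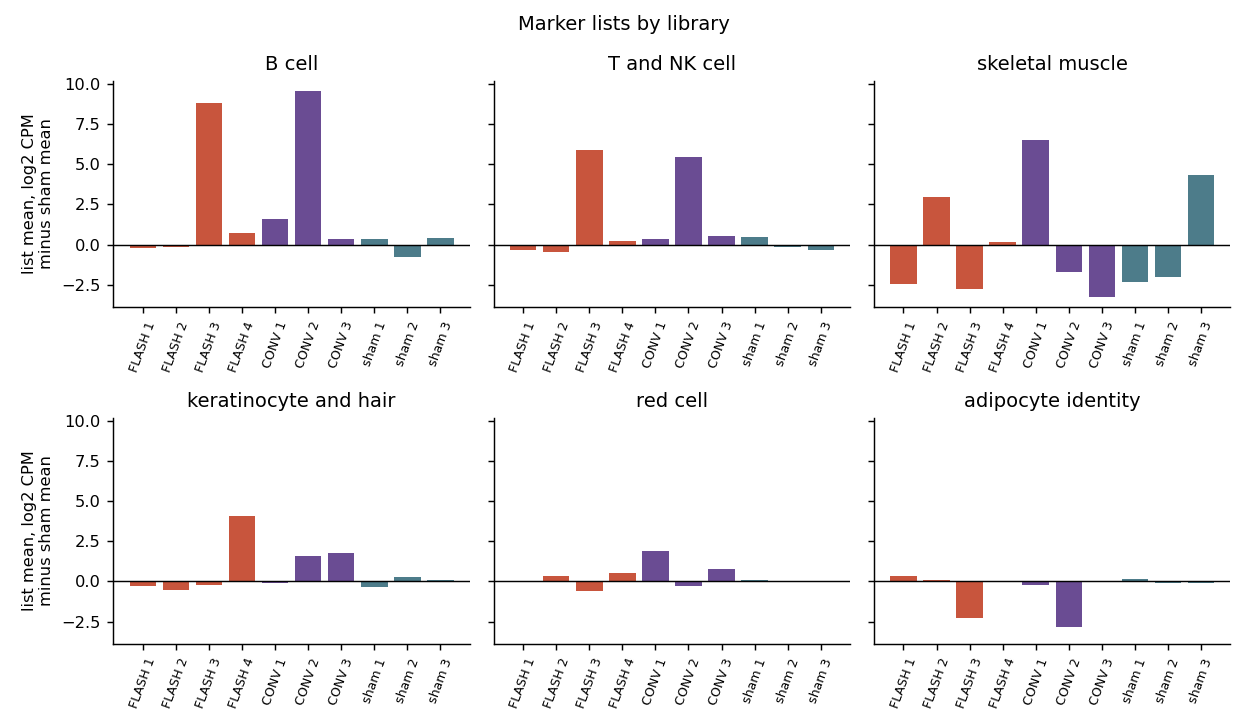
Mean of 6 marker lists in each library on the log2 scale relative to the sham mean, FLASH, CONV and sham from left to right. B cell and T and NK cell lists were high in FLASH replicate 3 and CONV replicate 2, where the adipocyte list was low, while muscle and keratinocyte lists were high in other single libraries.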

How the data were processed

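The deposited values are raw counts, whole numbers listed by gene symbol and not normalized by the authors. Per the labels' protocols, RNA was extracted from frozen fat, prepared as stranded total RNA libraries after removal of ribosomal RNA, all in 1 batch. The submitters' processing notes name kallisto 0.5.0 and mm10; the file entries have the names that htseq-count writes, while for the aligner, strand setting and annotation nothing is stated (not given in the sources used here). Entries for reads given to no gene held 52.0% to 69.6% of all counts and were left out. Counting error is small at this depth, and the spread between libraries sets the precision.

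Genes were filtered by expression in the groups, scaled by TMM factors (0.869 to 1.17) and fitted with edgeR 4.0.16 (robust quasi-likelihood) in R 4.3.3, with 1 coefficient for each of FLASH, CONV and sham; the contrast was the mean of FLASH and CONV minus sham, with Benjamini-Hochberg adjustment over all genes tested. No pair of libraries within a group differed by as little as counting noise. The fit was repeated with DESeq2 1.42.0, limma voom 3.58.1 (with and without quality weights), other scalings and filters, each library left out, the replicate number as a block, and without the lymphocyte-rich pair, 2 libraries in which the mean of the B cell list exceeded that of every sham library by over 3 on the log2 scale. Procedures were tested on simulated data. Named genes are the 12 higher and 12 lower genes of smallest p among those with no overlap, equal signs at both dose rates, a mean log2 CPM of at least 1 and a gene name; the 3 of smallest p in each of 48 gene lists; and 15 genes named in every case. The genes and lists were chosen with earlier results of these data known. Positions are from GENCODE M21 (GRCm38, the assembly of mm10; 95.8% of symbols matched) and promoters from RefSeq GRCm38.p6. Some items withheld for evaluation are not reported here.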

Additional observations from a re-analysis of the deposited data

Results flagged for a closer look

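Values of 101 genes and 48 list means were examined among the 4 FLASH and among the 7 irradiated libraries for a highest or lowest library far from the rest. Of 298 groups of values 38 had such a library, and 30 of the 38 were FLASH replicate 3, the lymphocyte-rich FLASH library. A rate of 1 in 20 would give about 15, but the groups share libraries and genes and were partly chosen on these data. The 15 is therefore no measure of chance here. With all 10 libraries 0 genes differed between FLASH and CONV after adjustment over all genes in edgeR; without the lymphocyte-rich pair Prg4 and Socs3 did (adjusted p = 0.0126 in edgeR).

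FLASH replicate 3 was high among FLASH libraries for Cry1 (13.0 CPM), Il4ra (179 CPM), Ptpn1 (137 CPM), Arid5a (87.7 CPM), Slfn1 (74.3 CPM), Akap5 (5.41 CPM), Socs3 (35.2 CPM), Il1b (4.57 CPM), Pim1 (54.5 CPM), Pmaip1 (29.9 CPM) and Icam1 (93.2 CPM). It was low for Cacnb4 (1.87 CPM), Nxnl1 (0.381 CPM), Cyp2e1 (368 CPM), Zfp395 (43.6 CPM) and Plin1 (286 CPM), the lipid droplet coat gene of adipocytes. Its list means relative to sham, on the log2 scale, were 8.82 for B cells, 5.90 for T and NK cells, 3.92 for lymph node stroma, 2.79 for MHC class II, 1.18 for MHC class I, 1.27 for STAT3 and cytokine receptors, 1.06 for chemokines, 1.04 for DNA repair and 1.00 for NF-kB. They were -2.27 for adipocyte identity, -1.50 for matrix and crosslinking, -1.47 for lipolysis, -1.02 for the glucocorticoid response and -0.98 for insulin signalling.

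FLASH replicate 4 was high among FLASH libraries for the keratinocyte and hair list, at 4.04. Among all 7 irradiated libraries, CONV replicate 3 was high for Fkbp5 (121 CPM), for Ucp1, the uncoupling protein of thermogenic fat (20.8 CPM), and for the thermogenic list (1.34). CONV replicate 1 was high for Adgre1 (83.6 CPM), the macrophage marker F4/80, and for Clec11a (3.07 CPM) it was set apart from the rest. FLASH replicate 4 was high for the smooth muscle gene Myh11 (103 CPM), and CONV replicate 2 was high for the unfolded protein response list (0.93).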

How the results depend on the processing

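edgeR called 0 genes under each alternative scaling and filter, without each single library and without the lymphocyte-rich pair, but 39 (23 higher, 16 lower) without the pair and CONV replicate 1; without the pair and any other library it called 0. Limma voom called 0 with all libraries and without the pair. DESeq2 called 8 genes with all libraries and 129 without the pair; the cause was not tested. The count of genes with no overlap, 279, was 459 without the pair and 242 to 325 under other scalings and filters. With 1 library left out, and so fewer to separate, it was 286 to 1287, depending on the library.

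The replicate numbers do not pair the samples: deviations of same-numbered libraries correlated at -0.756 to 0.261 (median -0.0474, n = 9 pairs), other pairs at -0.664 to 0.898. The fit with the replicate number as a block called 0 genes, with 197 at an unadjusted p under 0.05.

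Signs turned only for genes with values near 0 or large spread. Ccng1 (-0.08) was 0.0823 with quality weights, 0.0412 without CONV replicate 2, 0.12 without the pair and 0.20 with the B cell list as a covariate. Pecam1 (0.14) was -0.0307 with quality weights, -0.0096 without the pair and -0.0123 with the covariate. Cdkn1a (-0.16) was 0.0530 without the pair and 0.17 with the covariate, and Adgre1 (0.13) was -0.21 without CONV replicate 1. With the covariate Pparg was 0.0796, Col1a1 0.0299 and Col3a1 0.0845. With 1 library left out, Ccng1 ranged from -0.17 to 0.0412 and Adgre1 from -0.21 to 0.29. Of the list medians, 47 values moved by more than the SD between replicates of a group and 1057 did not. The B cell covariate and the sets without the pair were chosen after seeing the data. Depth limits genes under about 1 CPM.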

Other observations

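Homeobox genes that mark body position were noticed after their values were seen and were on no list, so their values are a description. Of 28 Hox genes tested, 27 had a negative pooled fold change, against 44.6% of all genes, with a median of -0.56, and 24 of 27 were negative without the lymphocyte-rich pair with a median of -0.29. None passed an adjusted p of 0.05 in edgeR, and 2 had an unadjusted p under 0.05, both lower, against 1.21% of all genes tested that were lower at that level. The HoxC cluster had the lowest median, -0.78 over 6 genes, and the HoxD cluster the one nearest to 0, -0.07 over 5 genes. Hoxc5, Hoxc8 and Hoxc10 lay below every sham library in all 7 irradiated libraries, as did 0.832% of all genes tested. Hoxc5 had 31.2, 32.7, 11.97 and 35.0 CPM after FLASH and 26.0, 9.05 and 19.5 CPM after CONV, against 37.2, 43.5 and 44.3 CPM in sham. Hoxc10 had 23.99, 24.6, 7.09 and 21.1 CPM after FLASH and 27.6, 6.34 and 26.1 CPM after CONV, against 29.6, 35.8 and 32.8 CPM in sham. The pair was lowest for both genes. Prrx1, another homeobox gene of limb mesenchyme, overlapped between groups at 72.8 to 191 CPM in irradiated libraries against 151 to 269 CPM in sham. The part of fewer stromal cells in these values was not tested.

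Tfrc, the transferrin receptor that brings iron into cells, was also noticed after its values were seen. It had 62.1, 66.8, 60.5 and 64.4 CPM after FLASH and 67.1, 70.4 and 67.3 CPM after CONV, against 53.1, 56.1 and 51.0 CPM in sham. The fold change was small and even across libraries, at 0.30 ± 0.11 (SE) on the log2 scale, with an adjusted p of 0.0390 in DESeq2 and 0.751 in edgeR. Ucp1 was not tested with all 10 libraries because few libraries held counts. CONV replicate 3 had 20.8 CPM and sham replicate 1 had 3.94 CPM, with at most 0.134 CPM in the others. In the fit without the pair it passed the filter, with a log2 fold change of -0.83 (unadjusted p = 0.664 in edgeR).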
